A study of Homo sapiens with 6 samples.

Results

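The genes described here are 31 components of focal adhesions and of the PI3K, AKT and mTOR pathway, out of 58884 gene identifiers in the authors' table of expression values. They were chosen by name from knowledge of the pathway, with earlier results of these data known, and all 31 were found in the table. Expression was measured by sequencing total RNA from 3 established human thyroid carcinoma lines, with 1 library per condition and 6 in all. BHT-101, an anaplastic carcinoma line, was given siCRABP2, a small interfering RNA against CRABP2, or siControl. FTC-133, a follicular carcinoma line, was given the same pair of siRNAs. The anaplastic carcinoma line 8505C carried a CRABP2 vector or an empty vector. The labels do not say whether the vector cultures were clones or pools, or whether cultures of a line were grown separately. The CRABP2 protein binds retinoic acid in the cytoplasm and hands it to nuclear receptors, and the design asks how lowering or raising it changes expression in these cells.

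Focal adhesions are the sites where integrins join the extracellular matrix to actin filaments. Talins and kindlins bind the integrin tails, vinculin and the complex of ILK, PINCH and parvin strengthen the link, and alpha-actinins, filamin, tensins and zyxin tie it to actin. Focal adhesion kinase and SRC act there on the adaptors paxillin and p130Cas. Integrin and growth factor signals also activate PI3K, whose lipid product brings PDPK1 and the AKT kinases to the membrane, where PDPK1 and the mTOR complex that holds RICTOR phosphorylate AKT. In thyroid carcinoma this pathway is a frequent site of activating mutations. Transcript levels do not report phosphorylation, which is how most of these proteins are controlled.

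CRABP2 itself followed the labels. It was 11.4 FPKM with siCRABP2 and 27.3 FPKM with siControl in BHT-101, 0.170 and 8.94 FPKM in FTC-133, and 38.0 FPKM with the CRABP2 vector against 0.607 FPKM with the empty vector in 8505C. FPKM divides the reads of a gene by its exon length and by the depth of the library, so genes of different length can be compared roughly. Read totals recovered from the values ran from 22084110 to 27958622 per library. Transcripts of thyroglobulin (TG) and of the iodide transporter (SLC5A5), which mark differentiated thyroid cells, were at 0.0472 FPKM or below in all 6 libraries. The thyroid transcription factor PAX8 reached 13.0 and 12.3 FPKM in FTC-133 and stayed under 1 FPKM in the other two lines, while NKX2-1 was listed at 0 in both BHT-101 libraries and lay between 12.4 and 22.6 FPKM in the other 4. Of the 8 thyroid markers read, 3 reached 1 FPKM in a library, the third being DIO1, at 3.20 and 4.06 FPKM in BHT-101. Of 5 leukocyte markers 1 did, CD14, at 12.9 and 16.4 FPKM in 8505C (CRABP2 vector, empty vector) and 2.53 and 3.26 FPKM in BHT-101 (siCRABP2, siControl), and their summed level ran from 0.221 to 16.5 FPKM. PTPRC, which marks all leukocytes, and CD3E, which marks T cells, were at most 0.159 FPKM.

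The level of these genes spanned the whole range from abundant structural proteins to transcripts near 0. FLNA, the actin crosslinker filamin A, was the most abundant member in every library, at 246 and 292 FPKM in BHT-101 with siCRABP2 and siControl, 173 and 195 FPKM in FTC-133, and 126 and 155 FPKM in 8505C with the CRABP2 and the empty vector. ACTN4, an alpha-actinin, had the next highest mean, with 59.9 to 146 FPKM, followed by CAV1, the coat protein of caveolae, and ZYX (zyxin). The signalling enzymes lay far lower. The PI3K catalytic subunits PIK3CA, PIK3CB and PIK3CD ranged from 0.622 to 10.1 FPKM over the 6 libraries, and MTOR from 5.01 to 9.36 FPKM. FPKM reached 1 in 27 members in each BHT-101 library, 29 in each FTC-133 library, 27 in the 8505C library with the CRABP2 vector and 28 in that with the empty vector.

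**Figure D1:**
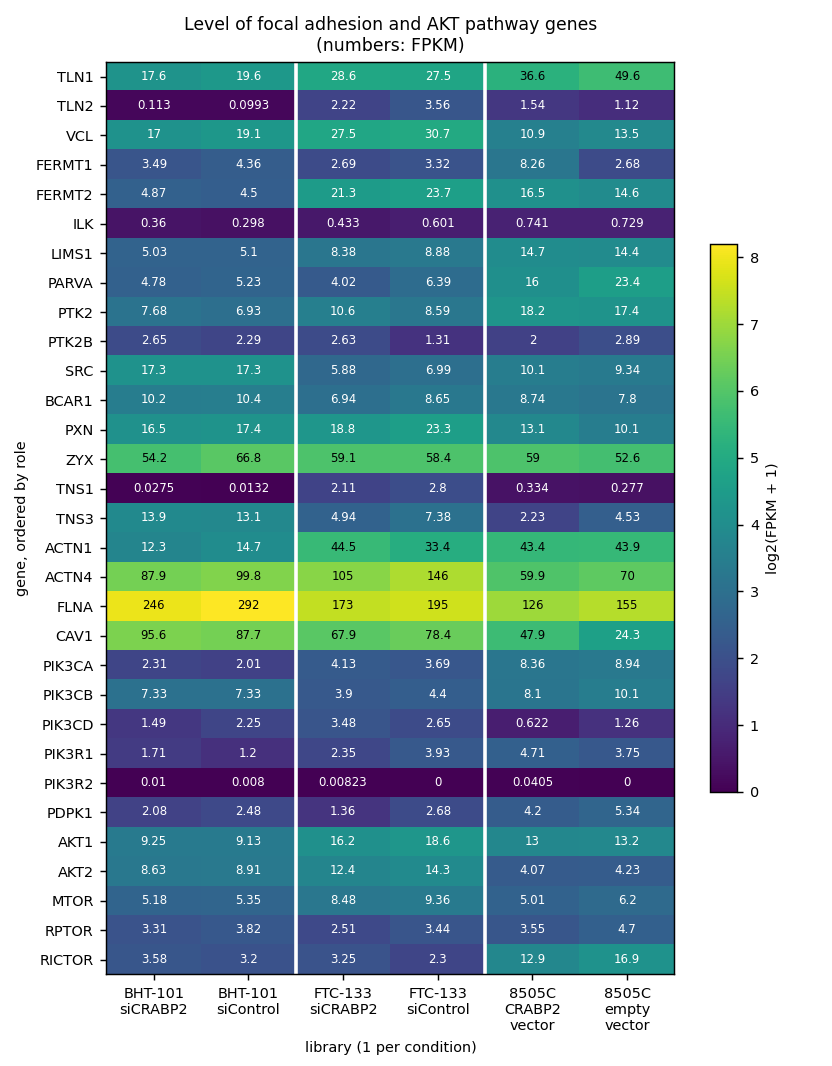
FPKM of the 31 genes (rows, ordered by role) in the 6 libraries (columns); the colour shows log2(FPKM + 1) and the printed number is FPKM. FLNA is highest in every column, and ILK and PIK3R2 stay below 1 FPKM throughout.

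ILK and PIK3R2 were the members that never reached 1 FPKM. ILK, the pseudokinase at the centre of the ILK, PINCH and parvin complex, was 0.360 and 0.298 FPKM in BHT-101 (siCRABP2, siControl), 0.433 and 0.601 FPKM in FTC-133 and 0.741 and 0.729 FPKM in 8505C (CRABP2 vector, empty vector). PIK3R2, a PI3K regulatory subunit, was at 0.0405 FPKM or below and was listed at 0 in 2 libraries. In GENCODE release 29, 78.5% of the exon bases of ILK are shared with other genes (68.1% of all its exon bases with TAF10 on the opposite strand), and 87.2% of those of PIK3R2 are shared with AC007192.1 on the same strand. Across the table, the 808 protein-coding genes that share at least 70% of their exon bases had a median mean level of 0.00183 FPKM, and 3.96% of them averaged 1 FPKM or more. Of the 17378 that share under 20%, 57.9% did. The part of exon sharing in the values of ILK and PIK3R2 was not tested, so their low values are not read as low expression. PIK3CA (35.8% shared, mainly with KCNMB3 on the opposite strand) and PDPK1 (23.7%) also pass 20%.

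**Figure D2:**
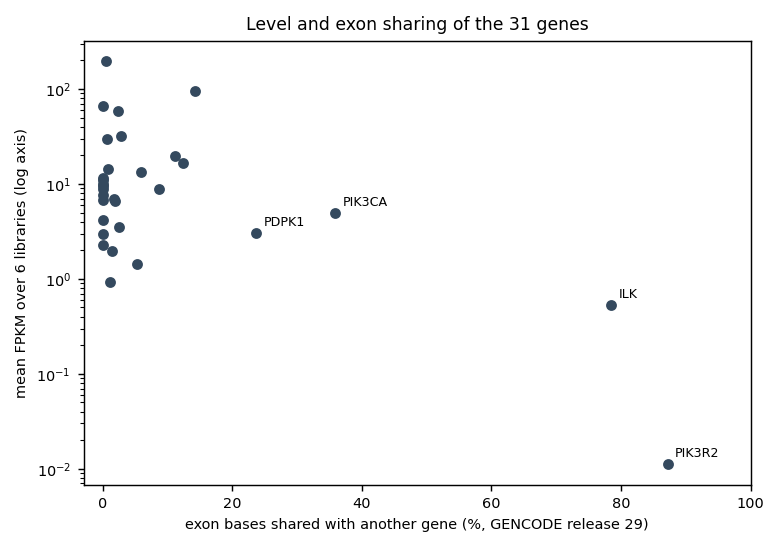
Mean FPKM over the 6 libraries (log axis) against the percentage of exon bases shared with another gene in GENCODE release 29, 1 point per gene, with names for genes sharing 20% or more. ILK (78.5%) and PIK3R2 (87.2%) have the highest sharing and the lowest mean levels.

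The first comparison asked what siCRABP2 did to these genes in BHT-101, and their transcripts stayed close to siControl. Differences are on the log2(FPKM + 1) scale, siCRABP2 minus siControl, and understate the change of genes with low values. A gene counted as measured in a line if it reached 1 FPKM in at least 1 of its 2 libraries, which 27 of the 31 did. None differed by 1.5-fold (0.585 on this scale) or 2-fold, against 3.03% (1.79% higher, 1.24% lower) and 1.13% of the 12055 measured genes. With 1 library per group there is no replicate check. The largest differences were -0.38 for PIK3CD, the PI3K catalytic subunit best known from leukocytes, and 0.30 for PIK3R1, the regulatory subunit that stabilises and restrains the catalytic subunits. PIK3CD was 1.49 FPKM with siCRABP2 and 2.25 FPKM with siControl, and PIK3R1 was 1.71 and 1.20 FPKM. Both are low transcripts, where small differences in FPKM weigh most. Among the abundant structural genes, ZYX was 54.2 FPKM with siCRABP2 and 66.8 FPKM with siControl (-0.30), and FLNA differed by -0.24.

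PTK2, which encodes focal adhesion kinase, was 7.68 FPKM with siCRABP2 and 6.93 FPKM with siControl in BHT-101, a difference of 0.13. AKT1 was 9.25 and 9.13 FPKM (0.02), and AKT2 was 8.63 and 8.91 FPKM (-0.04). The 95% exact counting intervals of the depth-scaled log2 read ratio held 0 for both AKT genes, from -0.06 to 0.10 for AKT1 and from -0.12 to 0.03 for AKT2, and lay above 0 for PTK2, from 0.07 to 0.23. Such intervals cover counting error only and compare the libraries, not the conditions. They lay above 0 for 7 of the 27 members and below 0 for 12, against 23.7% and 19.2% of all measured genes. An interval narrows as the reads of a gene rise, and members were not matched to other genes by reads. The median of the 27 members was -0.04, with 10 above 0 and 17 below, while 53.3% of all measured genes were above 0, with a median of 0.01. GC content moved with these differences. Pearson's r with exon GC was -0.51 over the 27 members and -0.23 over 12045 genes of the same pair of libraries. It was weaker in the other lines, at -0.13 (members) and -0.07 (all genes) in FTC-133 and -0.09 and -0.05 in 8505C. With the GC and length trend removed, 14 of the 27 members were above 0 in BHT-101 and their median was 0.02.

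In FTC-133, siCRABP2 went with a higher level of PTK2B and a lower level of PDPK1, and most other members were somewhat lower. PTK2B (GRCh38 chromosome 8, 27311482 to 27459391, plus strand), the calcium-responsive relative of focal adhesion kinase, was 2.63 FPKM with siCRABP2 and 1.31 FPKM with siControl, a difference of 0.66 with a counting interval of the log2 read ratio from 0.80 to 1.23. PDPK1 (chromosome 16, 2537964 to 2603188, plus strand), the kinase that phosphorylates the activation loop of AKT, was 1.36 FPKM with siCRABP2 and 2.68 FPKM with siControl, a difference of -0.64 with an interval from -1.16 to -0.80. These were the 2 of 29 measured members that passed 1.5-fold, against 17.4% of 12832 measured genes (7.76% higher, 9.64% lower). No member passed 2-fold on the log2(FPKM + 1) scale, against 4.71% of all measured genes, though without the added 1 the log2 read ratio of PTK2B was 1.01. With the GC and length trend removed PDPK1 was at -0.53, short of 1.5-fold.

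Just under the 1.5-fold size in FTC-133 were PIK3R1 and PARVA. PIK3R1 was 2.35 FPKM with siCRABP2 and 3.93 FPKM with siControl (-0.56). PARVA, the actin-binding parvin of the ILK complex, was 4.02 and 6.39 FPKM (-0.56). Next came the talin TLN2 and the tensin TNS3, each at -0.50, and ACTN4 at -0.47. The largest positive differences after PTK2B were 0.40 for ACTN1 (44.5 FPKM with siCRABP2, 33.4 FPKM with siControl) and 0.36 for RICTOR (3.25 and 2.30 FPKM), the scaffold of mTOR complex 2.

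PTK2 was 10.6 FPKM with siCRABP2 and 8.59 FPKM with siControl in FTC-133 (0.27). AKT1 was 16.2 and 18.6 FPKM (-0.19), and AKT2 was 12.4 and 14.3 FPKM (-0.19). Focal adhesion kinase transcript was thus higher, and both AKT transcripts lower, by less than the 1.5-fold size. The median of the 29 members was -0.19, with 8 above 0 and 21 below, where 46.1% of all measured genes were above 0 and their median was -0.04. Counting intervals lay above 0 for 7 members and below 0 for 20, against 32.1% and 39.5% of all measured genes. With the GC and length trend removed the median was -0.10, with 10 of 29 above 0, and the AKT differences shrank to -0.02 for AKT1 and 0.02 for AKT2.

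In 8505C, the CRABP2 vector went with higher FERMT1 and CAV1 and lower TNS3. FERMT1 (chromosome 20, 6074845 to 6123544, minus strand), the kindlin of epithelial cells, was 8.26 FPKM with the CRABP2 vector and 2.68 FPKM with the empty vector, a difference of 1.33 with a counting interval of the log2 read ratio from 1.44 to 1.81. CAV1 (chromosome 7, 116524785 to 116561184, plus strand), which shapes caveolae in the plasma membrane, was 47.9 FPKM with the CRABP2 vector and 24.3 FPKM with the empty vector, a difference of 0.95 with an interval from 0.90 to 1.05. TNS3 (chromosome 7, 47275154 to 47582558, minus strand), a tensin that joins integrin tails to actin, was 2.23 and 4.53 FPKM, a difference of -0.78 with an interval from -1.17 to -0.88. These 3 of 28 measured members passed 1.5-fold, against 12.8% of 11731 measured genes (7.09% higher, 5.73% lower). FERMT1 was the single member past 2-fold on the log2(FPKM + 1) scale, against 3.71% of all measured genes, while the log2 read ratio of TNS3 and of PIK3CD was -1.02. With the GC and length trend removed TNS3 was at -0.57, short of 1.5-fold.

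Next below the 1.5-fold size in 8505C was PARVA, at 16.0 FPKM with the CRABP2 vector and 23.4 FPKM with the empty vector (-0.52). PIK3CD was 0.622 and 1.26 FPKM (-0.48), and was measured only through the empty vector library. TLN1, the main talin, was 36.6 and 49.6 FPKM (-0.43). On the positive side, PXN (paxillin) was 13.1 FPKM with the CRABP2 vector and 10.1 FPKM with the empty vector (0.35). PTK2 was 18.2 and 17.4 FPKM (0.06), AKT1 was 13.0 and 13.2 FPKM (-0.02) and AKT2 was 4.07 and 4.23 FPKM (-0.04). The counting intervals of both AKT genes held 0, from -0.10 to 0.04 for AKT1 and from -0.16 to 0.05 for AKT2. The median of the 28 measured members was -0.07, with 11 above 0 and 17 below, against 52.8% of all measured genes above 0 and a median of 0.02. Intervals lay above 0 for 10 members and below 0 for 14, against 35.1% and 30.8% of all measured genes. With the GC and length trend removed 14 of the 28 were above 0 and the median was -0.01.

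**Figure D3:**
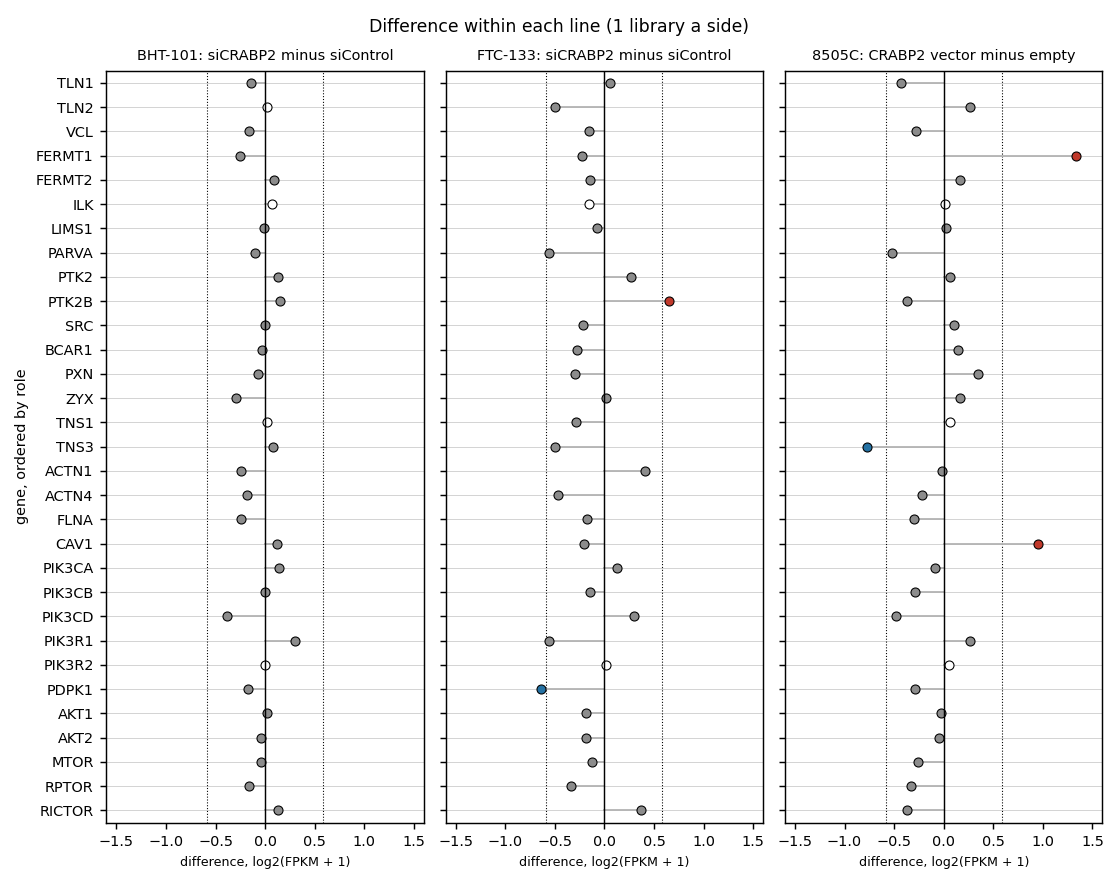
Difference within each line on the log2(FPKM + 1) scale (x axis) for the 31 genes (rows); open circles mark genes not measured in that line, dotted lines mark 1.5-fold, and red and blue points pass it. No gene passes in BHT-101, PTK2B and PDPK1 pass in FTC-133, and FERMT1, CAV1 and TNS3 pass in 8505C.

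CAV1 was the most abundant of the genes that passed the size rule, so the 250 bases before its RefSeq start are shown (GRCh38.p14, chr7:116524759-116525008, plus strand). Capitals mark the GC box GGGCGG on either strand, the core of the binding site of SP family factors.

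CAV1: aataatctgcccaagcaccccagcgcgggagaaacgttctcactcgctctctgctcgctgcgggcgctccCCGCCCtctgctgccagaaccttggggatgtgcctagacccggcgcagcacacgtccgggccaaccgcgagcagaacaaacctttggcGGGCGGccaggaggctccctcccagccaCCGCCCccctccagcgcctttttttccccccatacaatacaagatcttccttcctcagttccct

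This window of CAV1 holds 3 GC boxes, which begin 180, 92 and 64 bases before the RefSeq start. The GENCODE position of CAV1 given above begins at 116524785, which lies inside the window. Most of the window, with all 3 boxes, thus lies after the GENCODE start and within the gene as annotated there. Which start is used in these cells was not tested. The motif is common. It was found on either strand in 41.6% of the 27305 RefSeq promoters, each read over the 250 bases before the start. It was in 65.9% of the 10071 promoters of genes that reached 1 FPKM here, and in 19 of the 26 members with a RefSeq promoter. The TEAD motif GGAATG was found in 12.0% of all promoters, in 9.85% of those of genes that reached 1 FPKM and in those of PXN and VCL among members. The serum response factor CArG box was found in 1.18% of all, in 1.04% of those of genes that reached 1 FPKM and in that of FLNA among members. The retinoic acid receptor half-site AGGTCA was found in 12.2% of all, in 8.44% of those of genes that reached 1 FPKM and in none of the 26 member promoters. The GC box and AGGTCA were searched after the values had been seen. A match is a description of the sequence, and the absence of one says only that these letters are not in this window.

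The direction of each gene was next set side by side over the lines, for the 27 members measured in all 3. Below 0 in both knockdowns were 13 of them (48.1%, against 27.6% of the 9699 genes measured in all lines), and above 0 in both were 4 (14.8%, against 28.0%). These counts keep the GC and length trend. With it removed, 14 of 27 measured members were above 0 in BHT-101 and 10 of 29 in FTC-133. Of all genes, 6427 of 12045 in BHT-101 and 5789 of 12818 in FTC-133 were then above 0. The count over both knockdowns together was not taken with the trend removed. The excess below 0 thus depends on that trend to an extent that was not measured. Lower with siCRABP2 in both lines and higher with the CRABP2 vector were BCAR1, which encodes p130Cas, FERMT1, LIMS1, which encodes PINCH, PXN and SRC (18.5%, against 11.7%). FERMT1 had differences of -0.25 in BHT-101, -0.23 in FTC-133 and 1.33 in 8505C. PXN had -0.07, -0.29 and 0.35. LIMS1 and SRC differed by less than 0.02 from siControl in BHT-101, with counting intervals that held 0. With the GC and length trend removed BCAR1, PXN and SRC lay above 0 in BHT-101, at 0.09, 0.02 and 0.08, while FERMT1 and LIMS1 kept their signs in all lines. The reverse pattern, higher with siCRABP2 in both lines and lower with the vector, was seen for PIK3CA, PTK2B and RICTOR (11.1%, against 10.9%). RICTOR had differences of 0.13 in BHT-101, 0.36 in FTC-133 and -0.37 in 8505C.

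No member passed a test over lines. In limma with the line as a block, fitted to the 4 siRNA libraries, 0 of 29 members and 0 of 12953 genes had an adjusted p under 0.05 (0% called). At an unadjusted p under 0.05 there were 0 members and 539 genes (4.16%). Of the 29 members 24 had a negative fitted difference, siCRABP2 minus siControl, with a median of -0.11, as did 6781 of all 12953 genes, whose median was -0.01. The GC and length trend was not removed in the limma fits. In the fit to all 6 libraries, the arm with less CRABP2 (siCRABP2, empty vector) minus the arm with more (siControl, CRABP2 vector), 0 of 28 members and 0 of 11628 genes passed (0% called). At an unadjusted p under 0.05 there were 2 members and 372 genes (3.2%). These were FERMT1 and PTK2B. FERMT1 had a difference of -0.61 (SE 0.23, adjusted p = 0.999), with all 3 lines lower in the arm with less CRABP2. PTK2B had 0.39 (SE 0.16, adjusted p = 0.999), with all 3 lines higher in that arm. PTK2 had 0.11 (SE 0.14), AKT1 -0.05 (SE 0.14) and AKT2 -0.06 (SE 0.14), each with an adjusted p of 0.999. These fits had 1 and 2 residual degrees of freedom, and a p-value from them rests on the spread of the difference from line to line, in which noise of single libraries is included. The FERMT1 difference was -0.24 without the 8505C pair and -0.79 without the FTC-133 pair, and that of PTK2B was 0.26 without the FTC-133 pair.

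The level of most members differed more between the lines than within them. For 26 of 29 members (89.7%) the range of the line means was larger than the largest difference within a line, as it was for 88.4% of 13736 genes. FERMT1, PTK2B and ZYX were the exceptions. The median range of line means was 1.16 for the members and 1.09 for all genes, and the median of the largest difference within a line was 0.34 and 0.36. The lines were then compared in limma over all 6 libraries, with the CRABP2 arm as a covariate and 2 libraries a line. The 2 libraries of a line had different treatments and are not replicates. They stand in for the spread of the line, with treatment differences that vary from line to line included. The fit had 2 residual degrees of freedom, so its SE and adjusted p-values rest on little. The siRNA or vector setting of 8505C cannot be told apart from its line, and the 3 contrasts share libraries. All genes together had a median of 0.16 for FTC-133 minus BHT-101, -0.01 for 8505C minus BHT-101 and -0.13 for 8505C minus FTC-133. With TPM these medians were 0.32, 0.25 and 0, so main differences are also given relative to the median gene of the contrast.

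FTC-133 stood above BHT-101 in kindlin-2, talin-2 and alpha-actinin-1. Of 29 members 11 were higher and 3 lower in FTC-133 at an adjusted p under 0.05 (28.3% of all genes higher and 17.7% lower, 46% in either direction). FERMT2, which encodes kindlin-2, was 21.3 and 23.7 FPKM in FTC-133 (siCRABP2, siControl) and 4.87 and 4.50 FPKM in BHT-101, a difference of 2.05 (SE 0.16, adjusted p = 2.7e-04) or 1.89 relative to the median gene. TNS1 was 2.11 and 2.80 FPKM in FTC-133 and 0.0275 and 0.0132 FPKM in BHT-101 (1.75, or 1.59 relative to the median gene), and TLN2 was 2.22 and 3.56 FPKM against 0.113 and 0.0993 FPKM (1.79, or 1.63 relative to the median gene). Both are close to 0 in BHT-101, where the scale compresses the difference. TNS1 reached 1 FPKM in FTC-133 alone, so it was tested only through the libraries in which it is high, and its call here and between 8505C and FTC-133 is a description. ACTN1 was 44.5 and 33.4 FPKM in FTC-133 and 12.3 and 14.7 FPKM in BHT-101 (1.45, or 1.29 relative to the median gene, adjusted p = 0.00213). SRC ran the other way, at 5.88 and 6.99 FPKM in FTC-133 and 17.3 FPKM in both BHT-101 libraries (-1.30, or -1.46 relative to the median gene, adjusted p = 0.00136). PIK3CB (-0.69) and TNS3 (-1.04) were the other members that were lower. AKT1 was 0.85 higher in FTC-133 (SE 0.16, adjusted p = 0.00675) and AKT2 0.55 higher (SE 0.16, adjusted p = 0.0344, and between 0.0184 and 0.0898 over the alternatives). Relative to the median gene these were 0.69 for AKT1 and 0.39 for AKT2. Of the 14 calls 9 held under both TPM and quantile normalization, and none changed sign.

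8505C stood above both other lines in RICTOR, PARVA, PTK2, LIMS1, PIK3CA, PDPK1 and TLN1. Against BHT-101, 12 of 29 members were higher and 7 lower (29.2% of all genes higher and 31.2% lower, 60.3% in either direction), and against FTC-133, 9 were higher and 10 lower (23.7% of all genes higher and 34.3% lower, 58% in either direction). RICTOR (chromosome 5, 38937919 to 39074408, minus strand) was 12.9 and 16.9 FPKM in 8505C (CRABP2 vector, empty vector), against 3.25 and 2.30 FPKM in FTC-133 and 3.58 and 3.20 FPKM in BHT-101 (siCRABP2, siControl). Its difference was 2.07 from FTC-133 (SE 0.17, adjusted p = 2.7e-04) and 1.85 from BHT-101 (SE 0.17, adjusted p = 3.7e-04), or 2.20 and 1.86 relative to the median gene. RICTOR did not pass between FTC-133 and BHT-101 (-0.23, adjusted p = 0.306). PARVA was 16.0 and 23.4 FPKM in 8505C, 4.02 and 6.39 FPKM in FTC-133 and 4.78 and 5.23 FPKM in BHT-101, a difference of 1.74 from FTC-133 and 1.76 from BHT-101, or 1.87 and 1.77 relative to the median gene. PTK2 was 18.2 and 17.4 FPKM in 8505C, 10.6 and 8.59 FPKM in FTC-133 and 7.68 and 6.93 FPKM in BHT-101. Its difference was 0.84 from FTC-133 (SE 0.17, adjusted p = 0.00635) and 1.18 from BHT-101 (SE 0.17, adjusted p = 0.0016), or 0.97 and 1.19 relative to the median gene. PTK2 did not pass between FTC-133 and BHT-101 (0.34, adjusted p = 0.137).

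Lower in 8505C than in both other lines were AKT2, CAV1, VCL (vinculin) and PXN, though the calls of VCL and PXN against BHT-101 did not hold under both TPM and quantile normalization. AKT2 was 4.07 and 4.23 FPKM in 8505C, 12.4 and 14.3 FPKM in FTC-133 and 8.63 and 8.91 FPKM in BHT-101, a difference of -1.47 from FTC-133 (SE 0.16, adjusted p = 7.1e-04) and -0.92 from BHT-101 (SE 0.16, adjusted p = 0.00372). Relative to the median gene these were -1.35 and -0.91. AKT1 took another order, with 13.0 and 13.2 FPKM in 8505C, 16.2 and 18.6 FPKM in FTC-133 and 9.25 and 9.13 FPKM in BHT-101. Its difference of 8505C from FTC-133 did not pass (-0.38, adjusted p = 0.0817), and that from BHT-101 did (0.47, adjusted p = 0.0416, and between 0.00657 and 0.0653 over the alternatives). CAV1 was 47.9 and 24.3 FPKM in 8505C, 67.9 and 78.4 FPKM in FTC-133 and 95.6 and 87.7 FPKM in BHT-101, with differences of -1.07 and -1.39, or -0.94 and -1.38 relative to the median gene. Both 8505C libraries thus lay below all 4 others for CAV1, the CRABP2 vector library included. FERMT2 was 16.5 and 14.6 FPKM in 8505C, a difference of 1.54 from BHT-101 and of -0.51 from FTC-133 (adjusted p = 0.0355), and the second was lost under TPM (-0.33, adjusted p = 0.155). Its adjusted p lay between 0.0203 and 0.155 over the alternatives. In each of the 2 contrasts of 8505C, 15 of 19 calls held under both TPM and quantile normalization, and none changed sign.

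**Figure D4:**
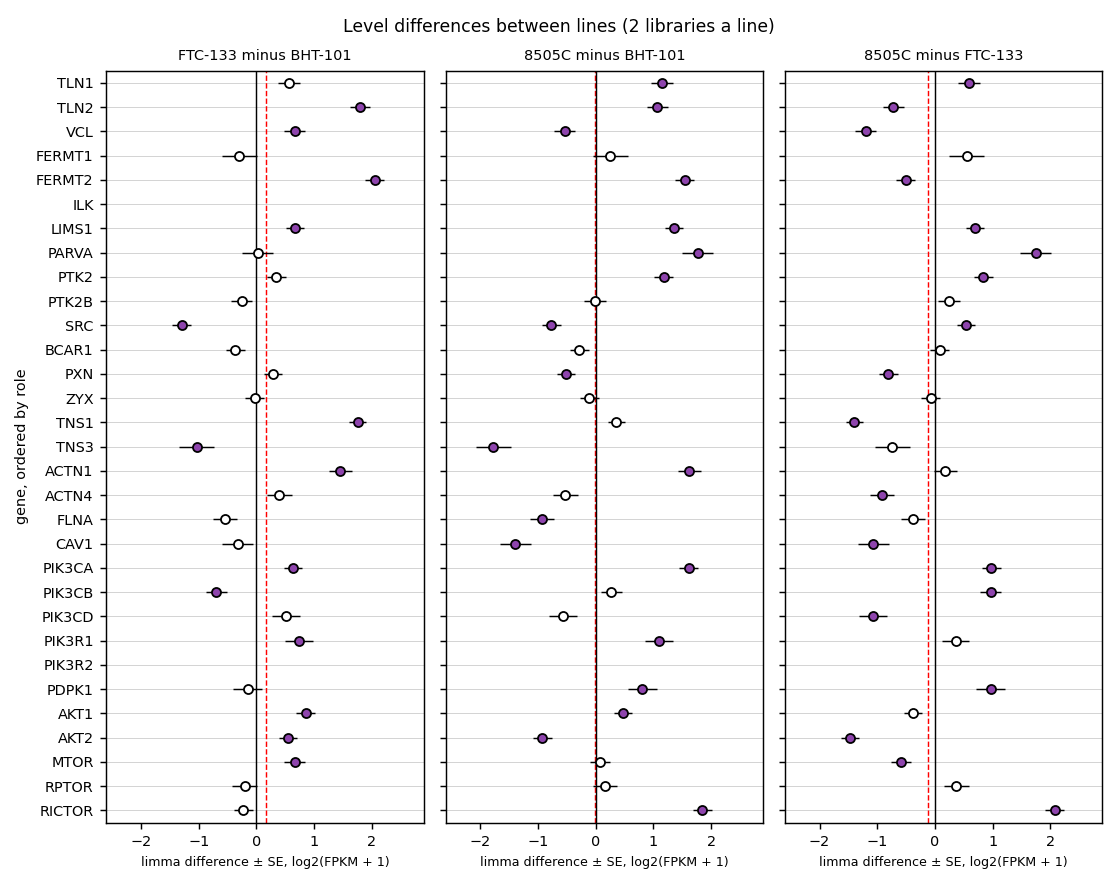
Level differences between lines from limma on the log2(FPKM + 1) scale (x axis, point and SE) for the 29 tested genes. Each line has 2 libraries, which differ in treatment. Filled points pass an adjusted p of 0.05, and the red dashed line is the median of all genes. RICTOR, PARVA and PTK2 are higher in 8505C than in both other lines, and FERMT2 is 2.05 higher in FTC-133 than in BHT-101.

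Because FPKM is scaled by length, the shares of related genes can be set side by side within a library. The length is that of all annotated exons of a gene together, so a share also depends on the annotation. RICTOR and RPTOR are the defining scaffolds of the 2 mTOR complexes. RICTOR made up 78.4% and 78.3% of their sum in 8505C (CRABP2 vector, empty vector), 56.5% and 40.1% in FTC-133 and 52.0% and 45.6% in BHT-101 (siCRABP2, siControl). AKT1 made up 76.1% and 75.8% of the sum of AKT1 and AKT2 in 8505C, 56.7% and 56.6% in FTC-133 and 51.7% and 50.6% in BHT-101. The AKT shares of the 2 libraries of a line lay closer to each other than to those of any other line.

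The makeup of the PI3K catalytic subunits and the kindlins also differed between lines. PIK3CD was 30.2% and 24.7% of the sum of PIK3CA, PIK3CB and PIK3CD in FTC-133, 13.4% and 19.4% in BHT-101 and 3.6% and 6.2% in 8505C. PIK3CA was 49.0% and 44.0% in 8505C, 35.9% and 34.3% in FTC-133 and 20.8% and 17.4% in BHT-101, with the limit that its exons are shared in part. FERMT1 was 33.4% of the sum of FERMT1 and FERMT2 in 8505C with the CRABP2 vector and 15.5% with the empty vector. It was 11.2% and 12.3% in FTC-133 and 41.8% and 49.2% in BHT-101. Of the sum of TNS1 and TNS3, TNS1 was 29.9% and 27.5% in FTC-133, 13.0% and 5.8% in 8505C and 0.2% and 0.1% in BHT-101. The tensins TNS2 and TNS4 are not in this sum, so these are not shares of all tensins. TNS2 was 4.55 and 6.77 FPKM in FTC-133, 3.32 and 3.64 FPKM in 8505C and 7.44 and 6.94 FPKM in BHT-101. TLN1 was the main talin everywhere, with 88.5% of the pair or more, and PTK2 made up between 74.4% and 90.1% of the pair with PTK2B.

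**Figure D5:**
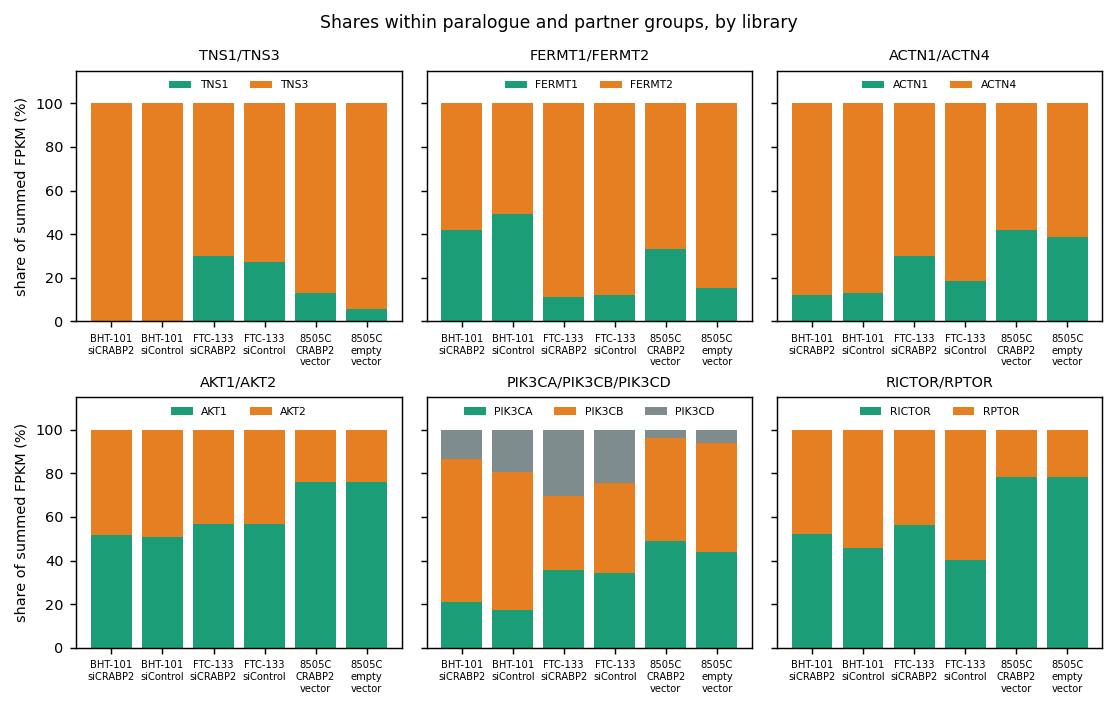
Share of summed FPKM (y axis, percent) of the genes in 6 groups of paralogues or partners, 1 bar per library. AKT1 and RICTOR take a larger share in both 8505C libraries than in the other 4, and FERMT1 takes 33.4% with the CRABP2 vector and 15.5% with the empty vector.

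Another 79 genes of the same pathways were read in the same way. In BHT-101 1 of 65 measured genes passed 1.5-fold (3.03% of all measured genes did), FLNC, a filamin of muscle, at 4.60 FPKM with siCRABP2 and 7.96 FPKM with siControl (-0.68). In FTC-133 2 of 70 were higher and 5 lower, against 7.76% and 9.64% of all measured genes. FOXO4, a transcription factor that AKT inhibits, was 5.34 FPKM with siCRABP2 and 2.12 FPKM with siControl (1.02), and the translation repressor EIF4EBP1, an mTOR complex 1 substrate, was 272 and 172 FPKM (0.66). Lower were KANK2, a talin-binding protein, at 12.0 and 27.0 FPKM (-1.11), the PI3K regulatory subunit PIK3R3 at 2.70 and 6.74 FPKM (-1.06) and the catalytic subunit PIK3CG at 1.84 and 3.39 FPKM (-0.63). In 8505C 2 of 67 were higher and 1 lower, against 7.09% and 5.73% of all measured genes. PAK1, a kinase downstream of RAC, was 9.00 FPKM with the CRABP2 vector and 5.05 FPKM with the empty vector (0.72), and the SRC family kinase YES1 was 42.7 and 26.4 FPKM (0.67). DEPTOR, an inhibitor of both mTOR complexes, was 4.09 and 9.98 FPKM (-1.11). In limma 0 of 72 and 0 of 68 of these genes passed in the siRNA fit and the 6-library fit, while 41, 50 and 43 of 73 differed between FTC-133 and BHT-101, 8505C and BHT-101, and 8505C and FTC-133. These are 56.2%, 68.5% and 58.9% of them, against 46%, 60.3% and 58% of all tested genes.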

How the data were processed

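The authors deposited FPKM, 1 value per gene and library. Per the submitters' processing notes, FastQC, Trimmomatic 0.38 and featureCounts 2.0.0 were used with GRCh38. For the aligner, annotation release and strand setting nothing is given in the sources used here. Without a strand setting, reads from overlapping genes on opposite strands cannot be separated. Per the labels' protocols, total RNA was extracted with Trizol. Groups came from the cell line and treatment labels, 1 library each, and libraries of a line were paired by the line.

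Whole reads were recovered from the FPKM steps. GENCODE release 29 exon lengths gave whole reads for 74.9% of 33848 genes above 0 (tolerance 0.001), and searched lengths for the rest, which can match by chance for genes seen in few libraries. Reads were used for totals and for exact 95% (Clopper-Pearson) intervals. Positions and exon sharing are of release 29, and promoters of RefSeq.

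Differences were taken on log2(FPKM + 1). A gene was measured in a line at 1 FPKM or more in either library. Comparisons over lines used limma 3.58.1 in R 4.3.3, with its variance trend option, on all genes at 1 FPKM or more in at least 2 libraries (3 in the 6-library fit of arms), with Benjamini-Hochberg adjustment at 0.05 over all genes. Scripts were tested on simulated data. Values in every library were given for members past 1.5-fold in a line or past 2 on the log2 scale between lines, and for PTK2, AKT1 and AKT2, and other members were named by role. Other pathway genes were named up to 3 per line and direction by size. The members, lists and rules were chosen with earlier results of these data known. Alternatives were another pseudocount, TPM, quantile normalization, other filters, a GC and length trend, no variance trend, no block, no arm covariate and leaving out a line. Leaving out members that share exons was chosen after seeing the data. Some results are not reported here.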

Additional observations from a re-analysis of the deposited data

Results flagged for a closer look

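For 6 of the 27 members measured in both siRNA lines (22.2%, against 13.3% of 10658 genes) siCRABP2 went with opposite directions in BHT-101 and FTC-133, with both counting intervals away from no change. These shares depend on read depth and were not matched for it. The difference between the lines was not tested, since each condition is 1 library. The gap, BHT-101 minus FTC-133 on the log2(FPKM + 1) scale, was 0.858 for PIK3R1, with differences of 0.30 (BHT-101) and -0.56 (FTC-133). It was -0.677 for PIK3CD, which ran the other way, at -0.38 and 0.29. For ACTN1 the gap was -0.644, for TNS3 0.581, for CAV1 0.328 and for TLN1 -0.199.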

How the results depend on the processing

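The count of members past 1.5-fold in FTC-133 (2 of 29) was 5 with a pseudocount of 0.1, 5 with TPM, 0 with a filter at 5 FPKM, which removes low genes such as PTK2B and PDPK1, 1 with the GC and length trend removed, and 1 without members that share exons, which leaves out PDPK1. In BHT-101 and 8505C the count stayed within 1.5 times under the same alternatives. The median member difference in BHT-101 (-0.04) turned to 0.0203 with the GC and length trend removed, and the cause was not tested. With no filter on low values, member calls were 8 instead of 14 for FTC-133 minus BHT-101 and 11 instead of 19 for 8505C minus FTC-133, with more genes in the adjustment. In the limma fits over the CRABP2 arms 0 members passed under any alternative run. Without the cell line as a block, 22 genes in the siRNA fit and 4 in the 6-library fit had an unadjusted p under 0.05, against 539 and 372 with it, and the pairing changed no call of a member. Leaving out a line gave 0 members in each case, with 10 genes passing without FTC-133, 1 without BHT-101 and 0 without 8505C. Each condition has 1 library, so differences within a line have no replicate check. Depth sets how small a change of low genes such as PIK3CD can be seen.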

Other observations

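Of the wider pathway, 2 genes that differed between lines are given here, chosen after their values were seen. TNS4, a tensin that lacks the actin-binding region of its relatives, was 8.45 and 11.7 FPKM in BHT-101 (siCRABP2, siControl), against 0.0453 and 0 FPKM in FTC-133 and 0.232 and 0.153 FPKM in 8505C (CRABP2 vector, empty vector). FYN, a SRC family kinase, was 17.4 and 15.2 FPKM in 8505C, 3.26 and 2.45 FPKM in FTC-133 and 0.972 and 0.985 FPKM in BHT-101. The difference of 8505C from BHT-101 in FYN was 3.12 (SE 0.19, adjusted p = 1.1e-04).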
